A study of Mus musculus with 6 samples.

Results

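The Krüppel-like (Klf) and Sp genes encode zinc finger transcription factors that bind GC-rich DNA. 10 genes of this family are described here, Klf17, Klf4, Klf5, Klf6, Klf3, Klf10, Klf13, Sp1, Sp3 and Sp6, out of 23259 gene names in the deposited table. The members were chosen by family name and with their total and T-to-C reads in every group already known, so their values are a description and carry no test. 17 other family genes were set beside them, of which 16 are in the table and Klf18 is not analysed here.

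Family members read the same kinds of site, the GC box and the CACCC box, through a shared zinc finger domain at the end of the protein, and differ in the part before it. KLF4, KLF5 and KLF6 belong to the branch of activators, KLF3 recruits the corepressor CtBP, and KLF10 and KLF13 recruit the corepressor SIN3A. SP1 and SP3 are broadly expressed factors of GC-rich promoters, while KLF17 is a factor of the germ line and early embryo that in the mouse has been linked to genome activation.

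Newly made RNA was marked in the embryos with 4-thiouridine (S4U), a uridine analogue whose positions are read as T-to-C mismatches after alkylation. The groups were zygotes of the genotype Pabpn1l-null, wild-type (WT) 2-cell embryos and WT zygotes, with 2 samples each and 50 embryos per sample, labelled for 2 h at 200 μM. A single protocol covers the 6 samples and names only zygotes, at 26 h after hCG, the hormone that triggers ovulation. The sources used here do not give the age of the 2-cell embryos, the mouse strain or the form of the Pabpn1l allele. The PABPN1L protein binds poly(A) tails in oocytes and early embryos and acts in the removal of maternal mRNA.

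The deposited table has a single column of total reads and a single column of T-to-C reads for each group, so no difference below has a replicate check. The column of Pabpn1l-null zygotes held 1270347 reads (3.86% of them T-to-C reads), that of WT 2-cell embryos 4020444 (4.54%) and that of WT zygotes 3001472 (3.03%). Low genes were often at 0 in null zygotes: of 1295 genes predicted from WT zygotes to have 3 to 5 reads there, 58.3% had none, against 2.27% for independent reads. If repeated reads of the same molecules were the sole source of these zeros, this would correspond to 7.36 reads per molecule, but transcripts that null zygotes lack add zeros too, and this measure cannot tell them apart. The other columns had such zeros too. They were 40.2% against 2.02% in WT 2-cell embryos, predicted from WT zygotes, and 36.0% against 2.62% in WT zygotes, predicted from WT 2-cell embryos. Exactly 1 read was found for 184 genes and 7 reads for 281 in null zygotes, 545 and 308 in WT 2-cell embryos, and 977 and 326 in WT zygotes. By the same reckoning WT 2-cell embryos had 4.28 and WT zygotes 3.76 reads per molecule. As a cautious choice, intervals count 7 reads as 1 molecule in every column, and they cover counting error only. Their 95% limits use the exact binomial formula on molecule numbers that need not be whole, so they are approximate. A single read counts as less than 1 molecule, which makes a lower end over 1 WT zygote read, as for Sp6, Klf9 and Klf3, less cautious. A column at 0 is taken to allow 3 molecules, or 21 reads.

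The labels were checked against marker genes. The 10 oocyte and zygote markers summed to 17081 RPM (scaled reads per 1000000) in null zygotes, 4202 in WT 2-cell embryos and 14632 in WT zygotes. The 7 markers of the 2-cell stage found in the table summed to 15.7 in null zygotes, 2920 in 2-cell embryos and 71.8 in WT zygotes. Pabpn1l itself had 4 reads in null zygotes, 14 in 2-cell embryos and 47 in WT zygotes, a null over WT zygote ratio of 0.188 (0.000379 to 2.19) that its counts do not set apart from 1. All 6 sperm markers were at 0 in null zygotes, the column with the fewest reads. They summed to 4 reads in 2-cell embryos and 8 in WT zygotes, with 4 of 6 at 0 in each. Markers of cumulus and granulosa cells summed to 20.1 RPM in null zygotes (8 of 10 at 0). Their sums were 15.0 in 2-cell embryos (6 at 0) and 36.1 in WT zygotes (6 at 0). Blood markers summed to 0.746 RPM in null zygotes, 12.2 in 2-cell embryos and 17.2 in WT zygotes.

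The sequences before the start sites of Klf17 and Klf4 are shown because these members had the highest T-to-C shares among those with at least 200 reads in 2-cell embryos, and because the family's own sites lie in them. Both are the 250 bases before the RefSeq start on GRCm38.p6, read 5′ to 3′ on the minus strand of chromosome 4, chr4:117765667-117765916 for Klf17 and chr4:55532476-55532725 for Klf4. Capitals mark the GC box GGGCGG and the CACCC box CACCC on either strand.
Klf17: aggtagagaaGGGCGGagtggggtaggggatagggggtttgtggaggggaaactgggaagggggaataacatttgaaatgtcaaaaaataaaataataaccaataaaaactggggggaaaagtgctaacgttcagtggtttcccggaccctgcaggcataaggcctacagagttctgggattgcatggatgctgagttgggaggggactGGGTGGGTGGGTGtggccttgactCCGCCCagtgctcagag
Klf4: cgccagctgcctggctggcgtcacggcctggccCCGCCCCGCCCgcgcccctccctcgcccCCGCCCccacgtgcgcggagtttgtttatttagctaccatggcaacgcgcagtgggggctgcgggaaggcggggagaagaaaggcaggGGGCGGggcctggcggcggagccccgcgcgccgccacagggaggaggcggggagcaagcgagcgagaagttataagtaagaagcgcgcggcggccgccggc
Klf17 has 2 GC boxes and 3 CACCC boxes, and these CACCC boxes stand in a row, each sharing 1 base with the next. Klf4 has 4 GC boxes, of which the first pair share 1 base, and no CACCC box. Windows of 300 bases, 250 before and 50 after the start, were given for 7 of the 10 members, with 2 for Sp3, and not for Klf5, Klf10 and Sp6. All 8 of these windows held a GC box and 5 held a CACCC box, where 35.7% and 57.5% of 32851 windows of all genes did. At least 3 CACCC boxes, the number in Klf17, stood in 9.35% of all windows. The Klf3 window had 5, and at least 5 stood in 1.02% of all windows. Of 18 windows of the other Klf and Sp genes, 10 held a GC box and 16 a CACCC box. A TATA box (TATAAA) was in 0 of the 8 member windows and in 13.6% of all, and a CCAAT box (CCAAT) in 5 of 8 and 37.4%.

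Klf17, on chromosome 4 at 117756659 to 117765666 of GRCm38, was the member with fewer total but more labelled reads at the 2-cell stage. It had 6963 reads in WT 2-cell embryos and 11123 in WT zygotes, a scaled ratio of 0.481 (0.444 to 0.521). Its T-to-C reads numbered 1974 in 2-cell embryos and 215 in zygotes, a ratio of 7.06 (4.85 to 10.6). The T-to-C share of its reads was thus 28.3% (25.6 to 31.3) in 2-cell embryos against 1.93% (1.31 to 2.74) in WT zygotes, and these intervals lie far apart. In bulk samples, fewer embryos or cells that carry an RNA and less of it per cell cannot be told apart.

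Reads of Klf17 without a mismatch were 4989 in 2-cell embryos and 10908 in WT zygotes, a ratio of 0.352 (0.321 to 0.384). In RPM, T-to-C reads made up 512 of 1805 in 2-cell embryos and 72.5 of 3751 in WT zygotes. Of 3410 genes with at least 200 reads in 2-cell embryos, 74 (2.17%) had a T-to-C share at or above that of Klf17, and the median gene had 2.09%. In WT zygotes 58.4% of 2901 such genes were at or above it, so there its share lay below the median of 2.17%. With RLE factors in place of TMM factors (both are ways to make columns comparable) the log2 ratio of total reads was -0.78 and no longer past 2-fold, against -1.05. The median over all genes was 0.29 with RLE factors, against 0.03. Scaled by the column totals of T-to-C reads, the log2 ratio of its T-to-C reads was 2.18 in place of 2.80.

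**Figure D1:**
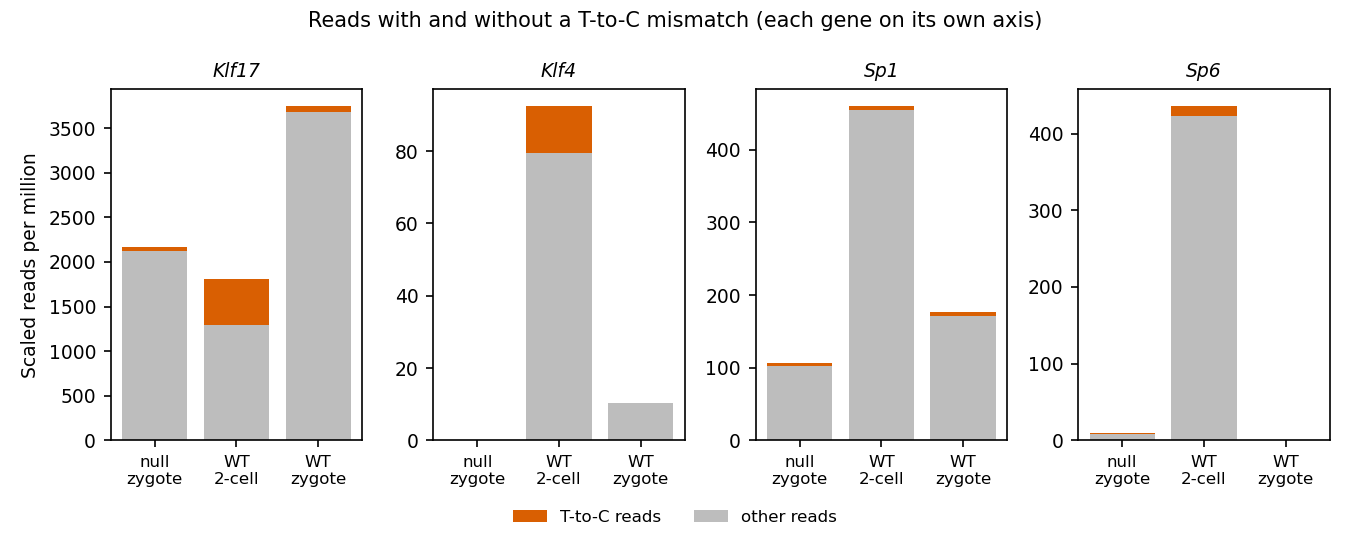
RPM (linear axis from 0, a separate axis per gene) of Klf17, Klf4, Sp1 and Sp6 in Pabpn1l-null zygotes, WT 2-cell embryos and WT zygotes, 1 column each and no error bars, with T-to-C reads in orange on top of other reads in grey. Klf17 had 1805 in 2-cell embryos with 512 of them T-to-C reads, against 3751 with 72.5 in WT zygotes, while Sp1 and Sp6 were higher in 2-cell embryos, with T-to-C shares of 1.30% and 2.97%.

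In null zygotes Klf17 had 2908 reads against 11123 in WT zygotes, a ratio of 0.578 (0.518 to 0.645). Its T-to-C reads were 63 in null and 215 in WT zygotes, a ratio of 0.648 (0.271 to 1.40) whose interval holds 1. The T-to-C share was 2.17% (0.995 to 4.07) in null zygotes and 1.93% in WT zygotes, with overlapping intervals. The lower total of Klf17 in null zygotes came without a difference in share beyond counting error.

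Klf17 made up most of the reads of the 10 genes, 92.0% in null zygotes, 59.9% in 2-cell embryos and 93.2% in WT zygotes. Summed reads of all 10 were 11634 in 2-cell embryos and 11933 in WT zygotes, a ratio of 0.749 (0.700 to 0.802), but without Klf17 the sums were 4671 and 810, a ratio of 4.43 (3.63 to 5.45). The sum over the 10 therefore takes the direction of 1 gene. Without Klf17 the null zygote sum was 254 against 810 in WT zygotes, a ratio of 0.694 (0.464 to 1.02).

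Of the activator branch, Klf4 was the member whose interval lay clear of 1 in 2-cell embryos against WT zygotes. Klf4, a factor used to reprogram somatic cells to pluripotency, lies on chromosome 4 at 55527137 to 55532475. It had 357 reads in 2-cell embryos and 31 in WT zygotes, a ratio of 8.85 (3.39 to 31.1), and 0 in null zygotes. Of its 2-cell reads 50 were T-to-C reads, a share of 14.0% (5.89 to 26.6), and none of its WT zygote reads was. Against the allowance of 21 reads the T-to-C reads were at least 1.83-fold higher if the 50 reads are taken as exact. With counting error in both columns, the lower end of their ratio was 1.14. A share at or above 14.0% was found in 6.95% of genes with at least 200 reads in 2-cell embryos. Klf17 and Klf4 are thus the members whose interval of the T-to-C share lies wholly above the median gene of that column. Summed cumulus and granulosa markers stood at 15.0 RPM in 2-cell embryos and 36.1 in WT zygotes, with 6 of 10 at 0 in each, and their part in the reads of Klf4, Klf5 and Klf6 was not tested.

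Klf5, which acts in the first lineages of the mouse blastocyst (chromosome 14, 99298691 to 99313412), had 55 reads in 2-cell embryos and 4 in WT zygotes, a ratio of 10.6 with a lower end of 0.952. Klf6, a factor induced early after many stimuli (chromosome 13, 5861489 to 5870393), had 42 and 17, a ratio of 1.90 (0.371 to 14.8). Neither had a T-to-C read in any column. The intervals of both hold 1. Both, like Klf4, had 0 reads in null zygotes, but WT zygotes had too few reads for a fold against that 0 to be given.

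The repressor branches were mixed. Klf3, the CtBP-binding repressor (chromosome 5, 64803521 to 64832901), had 22 reads in 2-cell embryos and 1 in WT zygotes, a ratio of 16.9 with a lower end of 0.311, and 0 in null zygotes. Klf10, known as an early gene induced by TGF-beta (chromosome 15, 38291464 to 38300711), had 200 reads in 2-cell embryos and 107 in WT zygotes, a ratio of 1.44 (0.747 to 2.87). In null zygotes Klf10 had 7 reads against 107 in WT zygotes, a ratio of 0.145 (0.00344 to 0.938). Its 7 reads in null zygotes equal 1 molecule as counted here.

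Klf13, a SIN3A-binding factor (chromosome 7, 63886351 to 63938915), was higher in both comparisons. It had 87 reads in null zygotes and 73 in WT zygotes, a ratio of 2.64 (1.06 to 6.67). With 369 reads in 2-cell embryos, its ratio to the same WT zygote column was 3.89 (1.98 to 8.43). Since both ratios share that column, they are not independent. T-to-C reads of Klf13 were 0 in null zygotes, 9 in 2-cell embryos and 0 in WT zygotes, and those of Klf10 were 0 in null zygotes, 7 in 2-cell embryos and 0 in WT zygotes. These counts are too small for a fold.

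**Figure D2:**
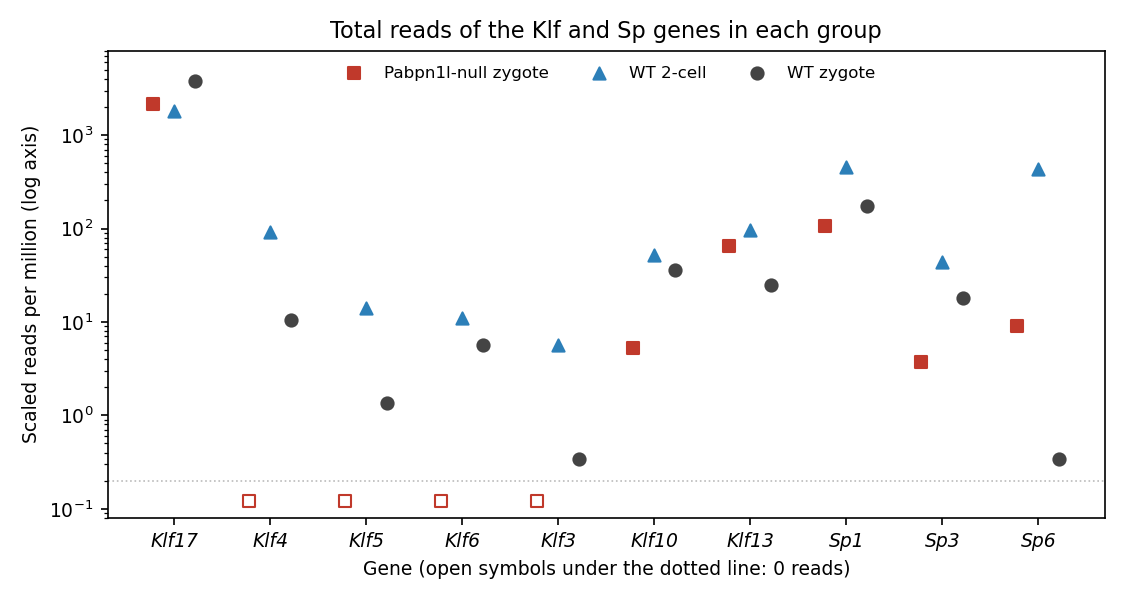
Total RPM, scaled by TMM factors (log axis), of the 10 Klf and Sp genes in Pabpn1l-null zygotes (red squares), WT 2-cell embryos (blue triangles) and WT zygotes (grey circles), 1 column per group, with open symbols for 0 reads. Klf17 was highest in WT zygotes at 3751, the other 9 were highest in 2-cell embryos, and Klf4, Klf5, Klf6 and Klf3 had 0 reads in null zygotes.

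Sp1 and Sp6 had the most reads after Klf17 in 2-cell embryos, with T-to-C shares whose intervals both hold the median gene's 2.09%. Sp1 (chromosome 15, 102406316 to 102436404) had 1776 reads in 2-cell embryos and 522 in WT zygotes, a ratio of 2.62 (2.01 to 3.43). Its T-to-C reads were 23 and 16, a ratio of 1.11 (0.145 to 10.8), an interval that holds both 1 and the ratio of total reads. The T-to-C share of Sp1 was 1.30% (0.295 to 3.58) in 2-cell embryos and 3.07% (0.455 to 9.93) in WT zygotes, and 73.7% of genes with at least 200 reads in 2-cell embryos had a share at or above 1.30%.

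Sp6, also called epiprofin and known from tooth and skin epithelium (chromosome 11, 97013569 to 97024739), had 1683 reads in 2-cell embryos and 1 in WT zygotes, a ratio with a lower end of 46.0. Of these reads 50 were T-to-C reads in 2-cell embryos and none in WT zygotes. As for Klf4, this is at least 1.83-fold higher with the 50 taken as exact, and the lower end of the ratio was 1.14. Its T-to-C share of 2.97% (1.22 to 5.98) in 2-cell embryos was held or passed by 34.1% of genes with at least 200 reads. Klf4 and Sp6 thus had the same 50 T-to-C reads in 2-cell embryos, out of 357 reads for Klf4 and 1683 for Sp6. None of the samples used here was unlabelled, so how many of these mismatches had other sources was not measured. In null zygotes Sp6 had 12 reads, 1 of them a T-to-C read, against 1 read in WT zygotes, a ratio of 26.55 with a lower end of 0.259.

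Sp3, the close relative of SP1 that can activate or repress (chromosome 2, 72936430 to 72980446), had 167 reads in 2-cell embryos and 54 in WT zygotes, a ratio of 2.38 (1.02 to 6.23). In null zygotes it had 5 reads against 54 in WT zygotes, a ratio of 0.205 (0.00130 to 1.94). For Sp1 the null over WT zygote ratio was 0.606 (0.352 to 0.9997), from 143 reads in null and 522 in WT zygotes, and its T-to-C reads were 6 and 16. The interval of Sp3 in null zygotes holds 1, and the upper end of that of Sp1 lies just under it.

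**Figure D3:**
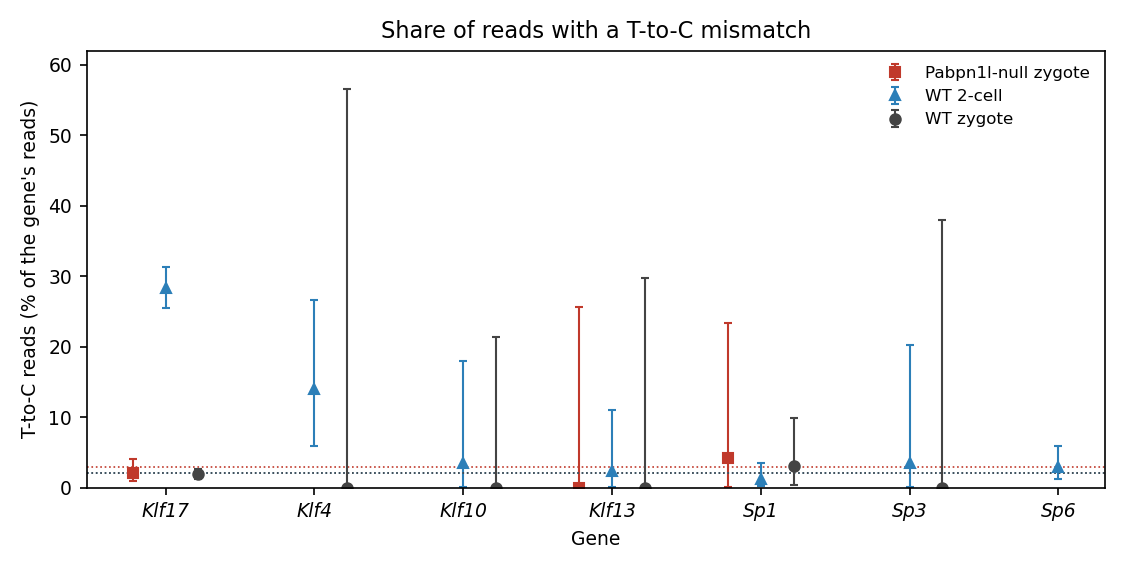
T-to-C reads as a percent of a gene's reads in Pabpn1l-null zygotes (red), WT 2-cell embryos (blue) and WT zygotes (grey). The 7 members with T-to-C reads are shown, in columns with at least 21 reads of the gene. Bars are 95% intervals on molecules. Dotted lines are the median gene of each column (3.02% in null zygotes, 2.09% in 2-cell embryos and 2.17% in WT zygotes). Klf17 at 28.3% and Klf4 at 14.0% in 2-cell embryos stand above the median line, and the other intervals reach down to it.

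Over the 10 members, all of which had at least 20 total reads over the 3 columns, 7 were at least 2-fold higher and 1, Klf17, at least 2-fold lower in 2-cell embryos than in WT zygotes. Over all 11262 genes past the same filter these shares were 30.4% and 28.0%. With RLE factors the members split into 8 higher and 0 lower, and the shares over all genes moved to 35.0% and 23.6%. The median log2 ratio of the members was 1.65, against 0.03 for all genes tested. Klf3, Klf5, Klf6 and Sp6 passed the filter only with their 2-cell reads, which favours the higher side, and 3 of these 4 are among the 7.

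In null zygotes 2 members, Klf13 and Sp6, were at least 2-fold higher than in WT zygotes and 4, Klf4, Klf6, Klf10 and Sp3, at least 2-fold lower on the scale with 0.5 molecule added, where 10.01% and 20.4% of all genes were. For Klf4 and Klf6, at 0 in null zygotes, the lower value comes from the added 0.5 molecule, since their ratios have intervals from 0 to 2.88 and from 0 to 7.89 and allow no fold. The median log2 ratio was -0.83 for the members and -0.18 for all genes. With genes at 0 in either column set at the 21-read allowance both medians were 0. The count of 4 lower rests on members with at most 107 reads in WT zygotes and at most 7 in null zygotes, and low genes of the null column are often at 0, as given above.

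In T-to-C reads 4 members had at least 10 over the 3 columns, Klf17, Klf4, Sp1 and Sp6. Klf17, Klf4 and Sp6 were at least 2-fold higher in 2-cell embryos than in WT zygotes after 0.5 molecule was added, and none was lower, where 33.8% of 4376 genes were higher and 22.9% lower. Scaled by T-to-C column totals, 27.2% of those genes were higher and 31.3% lower, and the same number of members, 3, were higher. Klf4 and Sp6 passed the filter through their 2-cell reads alone. The median log2 ratio of the 4 was 3.29, or 0.87 with zeros at the 21-read allowance, against 0.26 and 0 for all genes. In null against WT zygotes 0 of the 4 were 2-fold higher and 0 lower, where 19.8% and 19.1% of all genes were.

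**Figure D4:**
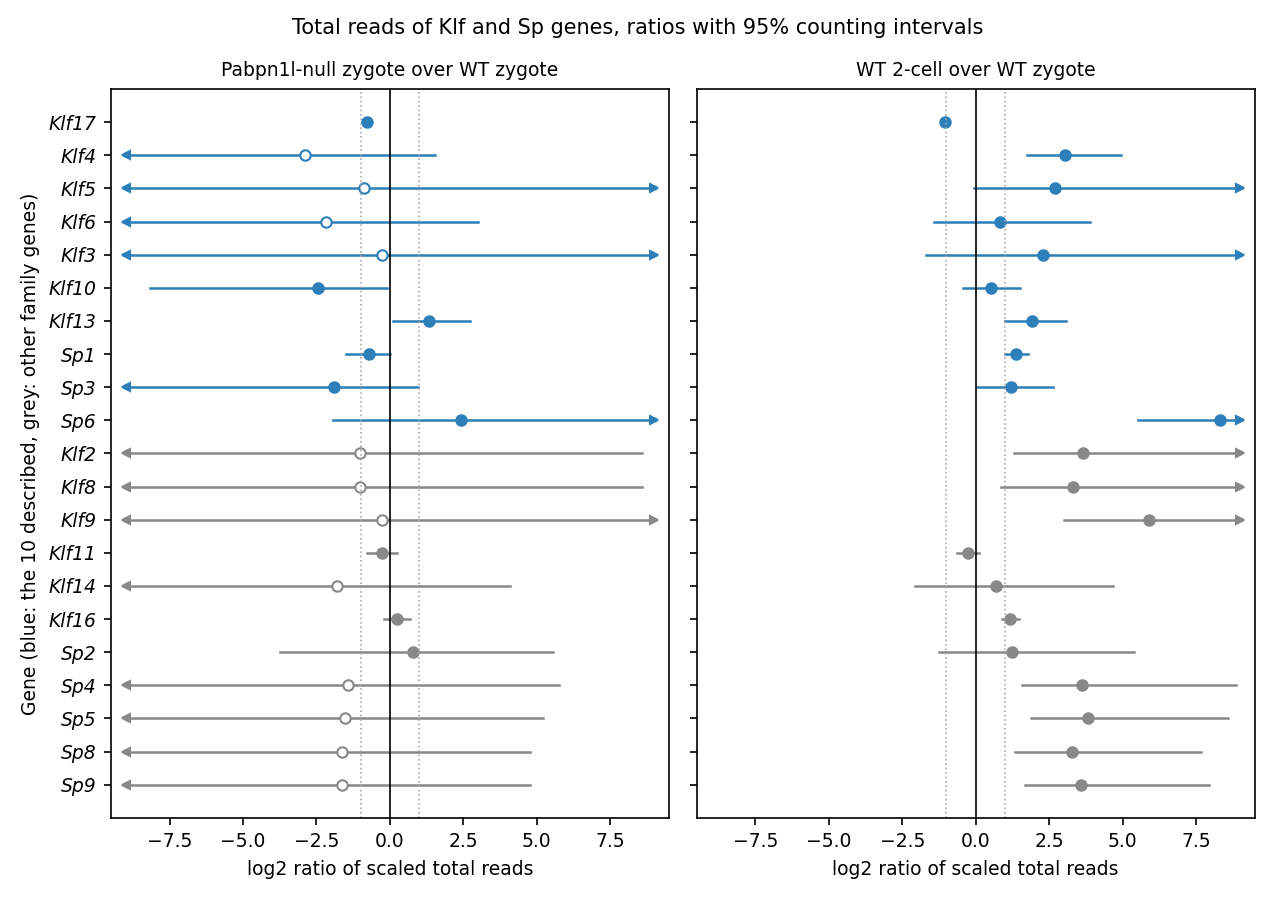
Log2 ratios of scaled total reads with 0.5 molecule added, for Pabpn1l-null over WT zygotes (left) and WT 2-cell embryos over WT zygotes (right). Shown are the 10 members (blue) and the 11 other family genes with at least 20 reads (grey). Bars are 95% intervals on molecules, cut with arrows at the axis ends. Open points have 0 reads in a column, and dotted lines mark 2-fold. On the right 7 members and 9 other genes lie at or above the upper 2-fold line and Klf17 alone lies under the lower one, a place it leaves with RLE factors.

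Of the 11 other family genes with at least 20 reads, 9 were at least 2-fold higher in 2-cell embryos than in WT zygotes and 0 lower, where 30.4% and 28.0% of all genes were. Of these 9, 7 (Klf2, Klf8, Klf9, Sp4, Sp5, Sp8 and Sp9) passed the filter only with their 2-cell reads. Such a pass favours the higher side without fixing it, since Klf14 passed in the same way and stayed within 2-fold. The count therefore supports nothing about the family. Klf9, a SIN3A-binding factor, had 307 reads in 2-cell embryos and 1 in WT zygotes (lower end of the ratio 8.10), Klf2, an activator known from endothelium, 129 and 5 (19.8, lower end 2.48), and Klf8, a CtBP-binding repressor, 99 and 5 (15.2, lower end 1.84). Sp4 had 174 and 8 (16.7, 2.99 to 464), Sp5, a target of Wnt signalling, 219 and 9 (18.7, 3.68 to 381), Sp8 162 and 10 (12.5, 2.54 to 202) and Sp9 200 and 10 (15.4, 3.20 to 247).

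Klf16 had 2648 reads in 2-cell embryos and 902 in WT zygotes, a ratio of 2.26 (1.84 to 2.78), with 41 and 18 T-to-C reads. Klf11, a SIN3A-binding factor like Klf10, had 909 and 830 reads, a ratio of 0.842 (0.651 to 1.09), with 50 and 21 T-to-C reads and a share of 5.50% (2.27 to 10.9) in 2-cell embryos. Klf1, Klf7 and Sp7 had 0 reads in every column. Klf14 is also an older symbol of Sp6 in RefSeq, but the table has a separate row by that name, with 0 reads in null zygotes, 28 in 2-cell embryos and 12 in WT zygotes.

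In null zygotes 7 of the 11 other genes were at least 2-fold lower than in WT zygotes on the scale with 0.5 molecule added and 0 higher, where 20.4% and 10.01% of all genes were. All 7 had 0 reads in null and at most 12 in WT zygotes, so that no fold can be given. With 1 molecule added 3 of them were past 2-fold lower, as were 15.1% of all genes. Klf11 and Klf16, with enough reads for a narrow interval, had ratios of 0.837 (0.580 to 1.19) and 1.18 (0.871 to 1.60). Over members and other genes alike, the family's values past 2-fold lower in null zygotes stand beside the excess of zeros in that column. The other columns held such zeros at lower percents, and the part of the zeros in these values was not tested.

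Proteins that KLF and SP factors bind or that modify them were taken from a list of 15. In 2-cell embryos against WT zygotes 5 were at least 2-fold higher and 4 lower, shares near the 30.4% and 28.0% of all genes, so that the list as a whole did not stand apart. The acetyltransferase genes Ep300 and Crebbp had 1386 and 2492 reads in 2-cell embryos against 266 and 480 in WT zygotes, ratios of 4.01 (2.82 to 5.83) and 3.99 (3.07 to 5.25), and the deacetylase gene Hdac1 96 and 25, a ratio of 2.95 (0.883 to 13.6). Lower were Ctbp2, a corepressor of KLF3, with 135 reads in 2-cell embryos and 839 in WT zygotes (0.124, 0.0722 to 0.201), Sap30, a subunit of the SIN3 complex, with 152 and 461 (0.253, 0.148 to 0.417), and the ubiquitin ligase gene Btrc, with 55 and 317 (0.133, 0.0538 to 0.287). Sin3a had 2561 and 1159, a ratio of 1.70 (1.41 to 2.05), and passed 2-fold with RLE factors at a log2 ratio of 1.04. In null against WT zygotes 2 of the 15 were at least 2-fold higher and 1 lower, where 10.01% and 20.4% of all genes were. None of these 3 had 70 reads in either column.

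Genes with a pattern most like that of Klf17 were sought by distance over 6 values. These were the log2 total reads of the 3 columns, centred on their mean, and the log2 of T-to-C over total reads in each. Before the logs 0.5 molecule, scaled to column size, was added to each count. Among 5069 genes with at least 200 reads in all columns together, the nearest were Crybg3 (distance 0.482), Mtus1 (0.502), Slc35a5 (0.567), Fgd6 (0.746) and Oog3 (0.766), where the median gene was at 3.71. Crybg3 and Slc35a5 had 0 T-to-C reads in null zygotes and 2 and 3 in WT zygotes, so their distances lean on the added amount. Mtus1 had 3287 reads in 2-cell embryos and 4980 in WT zygotes, with T-to-C shares of 23.8% and 2.07%. Fgd6 had 1135 and 2162 reads with 26.8% and 2.31%. For Sp6 the nearest were Med29 (1.503), Hipk1 (1.60), Slc16a6 (1.84), Ddit4l (1.86) and Ddx54 (1.94), against a median of 7.90. All of them had 0 T-to-C reads in null zygotes and at most 1 in WT zygotes, so these distances too lean on the added amount. Ddx54 had 0 reads in WT zygotes. Hipk1 had 2479 reads in 2-cell embryos and 5 in WT zygotes, with a T-to-C share of 2.34% in 2-cell embryos.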

How the data were processed

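The deposited table gives counts made by the authors, per row and group, of all reads and of those holding a T-to-C mismatch, and a text call of Positive or Negative that was not used. The submitters' processing notes name mm10 as the build. The aligner, counter, annotation, strand setting, duplicate handling and any merging of the 2 samples of a group were not stated in the labels or headers. None of the samples used here was unlabelled, so the T-to-C reads that sequencing error or strain differences give were not measured.

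The table holds 30493 rows. The 47 rows named by a date were left out, and of repeated rows of a gene that with the highest total was used; each Klf and Sp gene had 1 distinct row. Columns were scaled by edgeR 4.0.16 TMM factors on total reads (1.06, 0.959 and 0.988 for null zygotes, 2-cell embryos and WT zygotes), also for T-to-C reads. Genes needed 20 total or 10 T-to-C reads over the 3 columns. A log2 ratio has 0.5 molecule added, scaled to column size, and a call is a ratio past 2-fold. Ratios in the text are of scaled counts with nothing added. Intervals were computed with SciPy 1.17.1. A check on simulated total reads drew molecules of 7 reads each, as the intervals assume, so it could not test that assumption. It covered genes with many reads only, and no T-to-C reads. With 1 column pair per group no p-value was computed.

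Members and lists were chosen with earlier results of these data known. The named genes are all members, listed genes past 2-fold with at least 70 reads in a column of the comparison, and the 5 most like Klf17 and Sp6; Klf11, Sin3a, Klf1, Klf7, Sp7 and Klf14 were added after their values were seen, as was the Klf4 sequence. Promoter sequences are those of RefSeq on GRCm38.p6, and mm10 represents GRCm38. Protein sequences were not used here.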

Additional observations from a re-analysis of the deposited data

How the results depend on the processing

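Members' counts past 2-fold and median log2 ratios were recomputed with RLE factors, column totals alone, 1 read per molecule, 1 molecule added, summed distinct rows, T-to-C column totals, no filter and a filter of 50 reads, and 84 such values stayed within 1.5 times while 6 moved further. With RLE factors 0 members in place of 1 were lower in 2-cell embryos than in WT zygotes in total reads. The share over all genes was 23.6% in place of 28.0%. With 1 read counted as 1 molecule, 1 member in place of 0 was higher in T-to-C reads in null than in WT zygotes. The share over all genes was then 25.5% in place of 19.8%. In that setting the median log2 ratio of total reads in null against WT zygotes was -1.76 in place of -0.83. For labelled RNA at the 2-cell stage against WT zygotes the median log2 ratio was 4.65 in place of 3.29. With no filter that median was 1.71, over 7 members in place of 4, and 6 in place of 3 were higher. Over all genes 23.3% in place of 33.8% were higher. Of the values of single genes, 575 stayed inside their counting interval and 3 moved outside it (Klf17 in total and in T-to-C reads, and Sin3a, as given above). Of the other family genes, 3 in place of 7 were lower in null than in WT zygotes with 1 molecule added. The share over all genes was 15.1% in place of 20.4%. None of the called ratios changed sign. No paired analysis was possible because the table has 1 pair of columns per group and carries no replicate numbers, and for the same reason single replicates could not be left out. With 21 reads allowed at 0 in null zygotes, no fold can be given there for Klf3, Klf4, Klf5 and Klf6. These had 1, 31, 4 and 17 reads in WT zygotes. The parts of these low counts and of the depth of the null column were not tested apart.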
